A study of Homo sapiens with 24 samples.

Results

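The measurements compared here are the poly-A RNA profiles of DCVC_LPS and DCVC macrophages. Both groups had been exposed to the toxicant metabolite DCVC for 24 h, and DCVC_LPS then had 4 h of lipopolysaccharide (LPS). The members are the 6 libraries of DCVC_LPS and the 6 libraries of DCVC, 12 of the 24 libraries of the series, and they were chosen by their sample titles. They were described across the 13900 of 38735 named genes that had a mean of at least 10 normalized counts over the 24 libraries.

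All cells were THP-1, an established human monocytic leukaemia line, turned into macrophage-like cells with 100 nM of the phorbol ester PMA for 24 h. DCVC cells were then kept for 24 h in 5 µM DCVC, S-(1,2-dichlorovinyl)-L-cysteine, which the body makes from the solvent trichloroethylene by way of glutathione conjugation, and got no LPS. DCVC_LPS cells received the same DCVC treatment and, after a change of medium, 100 ng/mL LPS for 4 h. It is not stated here whether DCVC cells also had a change of medium and 4 further hours. If they did not, LPS, fresh medium and time cannot be told apart. Changes ascribed to LPS below are differences between the groups with and without LPS. The other groups of 6, Control with medium only and LPS with the same LPS treatment and no DCVC, are used here to estimate the spread and to set the response beside that of cells without DCVC. The model is 1 leukaemia cell line, and nothing in the labels states whether the 6 libraries of each group were grown as separate cultures. The p-values therefore measure the spread among these libraries, which may be technical. They take the 6 libraries of a group as independent, although libraries resembled each other in pairs (A with B, C with D, E with F).

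LPS, a part of the outer membrane of gram-negative bacteria, is bound by CD14 and sensed by TLR4 with its partner LY96. The adaptor MYD88 leads from TLR4 to NF-kB and the MAP kinases and to cytokine genes, and the adaptor TICAM1 leads to IRF3, interferon beta and the interferon-stimulated genes. Inhibitors such as NFKBIA and TNFAIP3 are themselves NF-kB targets and limit the response. Electrophilic compounds release the transcription factor NRF2 (gene NFE2L2) from KEAP1 and raise antioxidant genes such as HMOX1, NQO1 and GCLM.

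Each DCVC library held 18478618 to 22015664 reads in named genes, and each DCVC_LPS library 20352552 to 26232127. On the deposited scale the normalized total of a library was 17774466 ± 305501 (mean ± SD, n = 6) in DCVC and 21831254 ± 235113 in DCVC_LPS, a log2 ratio of 0.30 with all 6 DCVC_LPS libraries above all 6 DCVC libraries (two-sided exact permutation test, p = 0.00216, the smallest 6 against 6 can give). Of the 11 macrophage and monocyte markers, 10 had a median of at least 10 normalized counts in DCVC or DCVC_LPS, and the summed level of the 11 ran from 56067 to 63280 in DCVC and from 45582 to 49212 in DCVC_LPS. In that list SPI1 rose, CSF1R and CD14 fell and 8 genes were not called, against 3 that rose and 3 that fell with the replicate letter as a block and 2 and 2 without LPS replicate B. With the libraries rescaled to equal totals 0 of the 11 rose and 7 fell, at a median of -0.39. The library DCVC_LPS replicate F stood apart from the other 5 of its group in 22 of the genes named here, most often upwards, and the interferon and chemokine lists are given with and without it. CD68, often used to mark macrophages, was low in both groups, with normalized counts of 8.92 to 25.9 (median 14.8) in DCVC and 19.2 to 33.3 (median 23.8) in DCVC_LPS. ELANE, AZU1, PRTN3 and CTSG of the granulocyte precursor list were present in every library (summed list 9350 to 14564 in DCVC and 10501 to 15990 in DCVC_LPS). Of the defining T cell, B cell, epithelial, fibroblast and erythroid markers, CD3G, CD2, HBB and HBA1 had no read in either group, and the summed levels of these lists were at most 92.2 in DCVC for T and NK cells, 79.1 for B cells, 12.5 for epithelial cells and 170.0 for fibroblasts, of which CD79B fell from a median of 38.3 to 10.5 and PDGFRB from 128 to 39.2. The part of these other-cell markers in the results was not tested, and in bulk RNA fewer cells of a type and less RNA per cell cannot be told apart.

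Most of the expressed genes differed between DCVC_LPS and DCVC. Of the 13900 genes tested 62.1% were called, 4160 rising (29.9%) and 4475 falling (32.2%) in DCVC_LPS against DCVC at a limma Benjamini-Hochberg adjusted p under 0.05, and the median log2 change of all genes was -0.03. At least 2-fold, 1173 genes rose and 1409 fell (8.44% and 10.1%). Rises outnumbered falls among larger changes, since 472 rose and 278 fell at least 4-fold, 122 rose and 8 fell at least 16-fold, and 32 rose and 0 fell at least 64-fold. In 3073 genes (22.1%) all 6 DCVC_LPS libraries lay above all 6 DCVC libraries, and in 3196 (23%) all 6 lay below.

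The normalized totals differ between the groups. With each library rescaled to an equal total the median over all genes shifted by -0.29 (log2), and there were 2263 rises (16.3%) and 7322 falls (52.7%). All 2263 of those rises and all 4475 falls of the deposited scale were called on both scales, so the split into rises and falls depends on the scale for genes that changed by little, and the counts under equal totals are given below for each list whose split moved. Each list count below is to be read beside the shares of all genes, 29.9% rising and 32.2% falling, or 16.3% and 52.7% under equal totals. A list near these shares shows nothing particular to its genes. Of the net gain of 4056788 normalized counts per library, 28.5% came from 10 genes, led by CXCL8 (6.12%), IL1B (3.95%) and SOD2 (3.45%). The others were EEF1A1, FTL, FTH1, CCL3L3, YBX1, TXNRD1 and SQSTM1, of which EEF1A1, FTL, FTH1 and YBX1 have processed pseudogenes and CCL3L3 near-identical copies that can share reads.

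**Figure D1:**
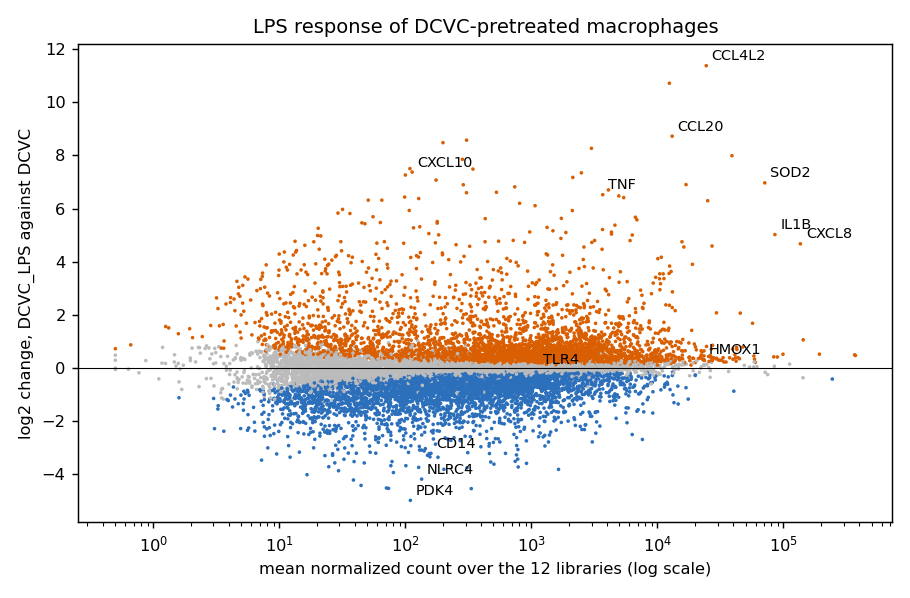
Log2 change in DCVC_LPS against DCVC (vertical axis, log2 units) against the mean normalized count over the 12 libraries (horizontal axis, log scale, the lowest means drawn at the left edge) for the 13900 tested genes. The 4160 genes called raised are orange, the 4475 called lowered are blue and the others grey, and the changes run from -4.98 (PDK4) to 11.38 (CCL4L2).

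Among genes with a mean of 50 or more and separate groups, the 15 largest rises included chemokine and receptor genes. CCL20 (chromosome 2, 227805739 to 227817564, plus strand), an attractant of CCR6-bearing cells, had normalized counts from 32.4 to 104 (median 61.3) in DCVC and from 16480.2 to 35099 (median 28190.5) in DCVC_LPS, a log2 change of 8.73 ± 0.31, limma adjusted p = 1.12e-17. A value after ± beside a log2 change is its standard error. ACOD1 (chromosome 13, 76948497 to 76958642, plus strand), the enzyme that makes itaconate, ranged from 0 to 0.977 (median 0.851) in DCVC and from 445 to 1020.2 (median 540.3) in DCVC_LPS (log2 change 8.58 ± 0.26, limma adjusted p = 7.06e-19). With 4 reads over DCVC and 4083 reads over DCVC_LPS, its log2 change depends on the 1 added to each value and is understated. TNFAIP6 (chromosome 2, 151357592 to 151380048, plus strand), which encodes a hyaluronan-binding secreted protein, ranged from 8.92 to 29.3 (median 21.8) in DCVC and from 4755 to 7043 (median 6139) in DCVC_LPS (log2 change 8.27 ± 0.39, limma adjusted p = 2.77e-15). The choice of these genes required every DCVC_LPS library to lie above every DCVC library. The spread within a group was small against the gap.

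CD80 (chromosome 3, 119524293 to 119559602, minus strand), a costimulatory ligand of T cells, ranged from 0 to 3.57 (median 1.46) in DCVC and from 417 to 926 (median 502) in DCVC_LPS (log2 change 7.86 ± 0.33, limma adjusted p = 3.58e-16). LAMP3 (chromosome 3, 183122213 to 183163839, minus strand), a lysosomal membrane protein of maturing dendritic cells, ranged from 0.811 to 5.11 (median 2.43) in DCVC and from 416 to 1509 (median 573) in DCVC_LPS (log2 change 7.49 ± 0.38, limma adjusted p = 1.34e-14). CXCL2 (chromosome 4, 74097035 to 74099293, minus strand), a neutrophil attractant, ranged from 11.6 to 53.8 (median 33.8) in DCVC and from 4739 to 5056 (median 5001) in DCVC_LPS (log2 change 7.35 ± 0.38, limma adjusted p = 1.99e-14). The groups were apart in all of them, by the rule of choice.

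DLL4 (chromosome 15, 40929333 to 40939073, plus strand), a Notch ligand, ranged from 14.3 to 59.6 (median 23.5) in DCVC and from 2661 to 5068 (median 4947) in DCVC_LPS (log2 change 7.18 ± 0.38, limma adjusted p = 3.27e-14). ADORA2A (chromosome 22, 24417879 to 24442360, plus strand), a receptor for adenosine, ranged from 0 to 3.57 (median 1.66) in DCVC and from 312 to 445 (median 322) in DCVC_LPS (log2 change 7.07 ± 0.30, limma adjusted p = 5.48e-16). IL18RAP (chromosome 2, 102418689 to 102452565, plus strand), the accessory chain of the interleukin-18 receptor, had 2 reads over the DCVC libraries and 1345 reads over the DCVC_LPS libraries, a ratio of normalized levels of 688 (95% exact interval 190.0 to 5684) that covers counting error only. Without DCVC replicate C or E, which held 1 of the IL18RAP reads each, the ratio was 1123 or 1145. Groups did not overlap for any of them, which the choice required.

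Other large rises belong to genes whose reads may be split with a copy or a partner, so their values are uncertain. CCL4L2 (11.38 on the log2 scale), CCL4 (10.72), CCL3L3 (7.99) and CCL3 (6.30) are near-identical in pairs, HCAR3 (7.51) is near-identical to HCAR2 (3.91), and ADORA2A-AS1 (8.48) is antisense to ADORA2A. ADORA2A and ADORA2A-AS1 overlap and the use of strand was not given, so the value of ADORA2A above is uncertain as well. All of these were called by limma with adjusted p of at most 7.82e-08.

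Promoter sequence is shown for CCL20 and CXCL10, because NF-kB is a main factor that LPS is known to activate. They are the largest rises whose RefSeq promoter held the motif searched, leaving out ADORA2A-AS1 and CCL3L3, whose reads are uncertain, so their matches were part of the choice. Of the 15 largest rises 10 had a promoter in the table, and 6 of the 10 held the motif. The 250 bases before the RefSeq start (GRCh38.p14) follow 5′ to 3′ on the gene's strand, with matches to a loose NF-kB motif (GGG, any 5 bases, CC), searched on both strands, in capitals. CCL20 lies on chr2:227813592-227813841 (plus strand) and CXCL10 on chr4:76023498-76023747 (minus strand).
CCL20: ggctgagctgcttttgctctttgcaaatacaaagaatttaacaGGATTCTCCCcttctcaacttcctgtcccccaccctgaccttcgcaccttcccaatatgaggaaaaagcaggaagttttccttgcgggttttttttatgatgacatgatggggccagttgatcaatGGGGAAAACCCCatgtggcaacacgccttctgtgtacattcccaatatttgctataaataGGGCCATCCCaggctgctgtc
CXCL10: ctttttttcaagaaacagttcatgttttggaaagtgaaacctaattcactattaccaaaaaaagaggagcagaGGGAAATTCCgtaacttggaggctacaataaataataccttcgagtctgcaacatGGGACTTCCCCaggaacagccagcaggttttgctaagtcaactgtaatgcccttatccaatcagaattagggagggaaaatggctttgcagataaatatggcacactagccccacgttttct
CCL20 held 7 matches at 5 start positions, the first at -207 and the next at -81 from the start, and CXCL10 held 4 matches at 3 start positions, the first at -177 and the next at -122. CXCL10 also held 1 match to GAAA, any 2 bases, GAAA, the core of the interferon-stimulated response element, and neither held TGANTCA, the AP-1 motif. The loose NF-kB motif stands in 53.7% of all 27305 promoters of the same length, in 69.0% of those of tested genes, in 71.1% of those of genes raised at least 4-fold and in 66.8% of those lowered at least 4-fold. The interferon element core stands in 3.07% of all promoters, in 2.54% of those of tested genes, in 6.80% of those raised at least 4-fold and in 1.90% of those lowered at least 4-fold, and TGANTCA in 6.60%, 4.16%, 9.63% and 5.69% of the same sets. A match is a description of letters and not of binding.

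Some genes had almost no read with DCVC alone. A mean of at least 10 in DCVC_LPS with at most 3 reads over the 6 DCVC libraries was found for 33 genes, 10 of them without a read in DCVC, and the reverse was found for 1 gene. CXCL10 (chromosome 4, 76021117 to 76023497, minus strand), whose protein attracts CXCR3-bearing lymphocytes, had no read in DCVC and ranged from 58.2 to 635 (median 167) in DCVC_LPS, at least 505-fold higher when DCVC is set to a floor of 3 reads summed over its libraries and at least 323-fold without DCVC_LPS replicate F, the highest library. IL6 (chromosome 7, 22725884 to 22732002, plus strand), the cytokine that drives the acute-phase response, had no read in DCVC and ranged from 26.7 to 84.5 (median 33.0) in DCVC_LPS, at least 90.7-fold higher. CSF2 (chromosome 5, 132073790 to 132076170, plus strand), the granulocyte-macrophage growth factor, had no read in DCVC and ranged from 22.6 to 33.7 (median 24.7) in DCVC_LPS, at least 59.4-fold higher. Floors and ratios cover counting error only.

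IDO1 (chromosome 8, 39902275 to 39928444, plus strand), which degrades tryptophan, had 3 reads over DCVC and 874 reads over DCVC_LPS, a ratio of 298 (95% exact interval 102 to 1447). All 3 DCVC reads of IDO1 were in replicate B, and without DCVC_LPS replicate F, in which IDO1 was highest, the ratio was 173. The long noncoding RNA LINC02865 had no read in DCVC and ranged from 45.9 to 85.8 (median 56.3) in DCVC_LPS, at least 142-fold higher. INO80-AS1 and C1orf147, annotated as antisense and hence uncertain, had 2 reads each over DCVC and 660 reads and 480 reads over DCVC_LPS. In the other direction GPR82 (chromosome X, 41724155 to 41730135, plus strand), an orphan receptor, ranged from 8.64 to 18.7 (median 13.6) in DCVC and had 3 reads over DCVC_LPS, a ratio of 31.0 (95% exact interval 10.3 to 153), or 77.4 without DCVC_LPS replicate A.

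Of 27 cytokine genes tested, 22 rose, 0 fell and 5 were not called, with a median log2 change of 2.70 against -0.03 for all genes (1 fell under equal totals and with the replicate letter as a block). Members without a read in DCVC, such as IL6 and CSF2, passed the filter through the libraries with LPS and could not fall. The counts of rises and the medians of this list and of the chemokine, interferon and costimulation lists are partly set by that filter. TNF (chromosome 6, 31575567 to 31578336, plus strand), the tumour necrosis factor that activated macrophages release, ranged from 49.1 to 137 (median 68.8) in DCVC and from 6437 to 8439 (median 7097) in DCVC_LPS (log2 change 6.52 ± 0.35, limma adjusted p = 3.89e-14). IL1B (chromosome 2, 112829751 to 112836903, minus strand), the interleukin-1 beta precursor, ranged from 2164 to 7049.9 (median 5792) in DCVC and from 150459 to 191179 (median 159068) in DCVC_LPS (log2 change 5.02 ± 0.27, limma adjusted p = 3.38e-14). IL23A (chromosome 12, 56334174 to 56340410, plus strand), a subunit of interleukin-23, ranged from 21.1 to 37.5 (median 26.5) in DCVC and from 1119 to 3107 (median 2177) in DCVC_LPS (log2 change 6.11 ± 0.29, limma adjusted p = 5.52e-15). No DCVC_LPS library came down to the DCVC range in any of them.

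LIF rose (log2 change 6.60 ± 0.52, limma adjusted p = 5.76e-11), and EBI3, IL32 and IL1A rose by 4.73, 4.35 and 3.52 on the log2 scale, all without overlap between the groups. CSF3 had 3 reads over DCVC and 277 reads over DCVC_LPS, a ratio of 94.4 (95% exact interval 32.0 to 461), or 239 without DCVC replicate D. IL12B, the shared p40 subunit of interleukins 12 and 23, stayed low, with 2 reads over DCVC and 64 reads over DCVC_LPS, a ratio of 32.7 (95% exact interval 8.70 to 276). Without DCVC_LPS replicate F the ratio for IL12B was 21.2, and without DCVC replicate B, which held both DCVC reads, the lower bound was 17.8. IL1RN (chromosome 2, 113107214 to 113134016, plus strand), the interleukin-1 receptor antagonist, ranged from 1085 to 1763 (median 1394) in DCVC and from 3405 to 3708 (median 3569) in DCVC_LPS (log2 change 1.35 ± 0.16, limma adjusted p = 1.16e-07). The anti-inflammatory IL10 had 4 reads over DCVC and 4 reads over DCVC_LPS and was not called (log2 change -0.04 ± 0.36, limma adjusted p = 0.927), and OSM (-0.19), IL18 (0.00), IL24 (0.18) and VEGFA (-0.33) were not called either. VEGFA was the member called with the replicate letter as a block (limma adjusted p = 0.0161).

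Of 19 chemokine genes, 17 rose and 0 fell, with a median log2 change of 3.90, or 4.19 with the 3 members that had no DCVC read at their lower bound, and 3.56 without DCVC_LPS replicate F. CXCL8 (chromosome 4, 73740506 to 73743716, plus strand), the main human neutrophil attractant, ranged from 3869 to 18848 (median 14446) in DCVC and from 217434 to 304780.0 (median 258901) in DCVC_LPS (log2 change 4.68 ± 0.50, limma adjusted p = 1.32e-08). The groups did not overlap. CXCL1 and CXCL3, which share its receptor, rose by 6.41 and 6.48, and CCL5 (chromosome 17, 35871491 to 35880793, minus strand), a T cell attractant, ranged from 1556 to 2311 (median 1935) in DCVC and from 16704 to 37081 (median 21729) in DCVC_LPS (log2 change 3.56 ± 0.17, limma adjusted p = 5.12e-15).

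CCL2 (chromosome 17, 34255218 to 34257203, plus strand), the monocyte attractant, ranged from 3.56 to 11.7 (median 7.40) in DCVC and from 6.13 to 37.4 (median 19.1) in DCVC_LPS (log2 change 1.14 ± 0.38, limma adjusted p = 0.0116), and 4 of 6 DCVC_LPS libraries lay above all DCVC libraries. Within the letters E and F the change of CCL2 did not pass the test. CXCL9, a CXCR3 ligand, had 1 read over DCVC and 5 reads over DCVC_LPS and was not called (log2 change 0.49 ± 0.42, limma adjusted p = 0.324). CXCL16 was the other chemokine that was not called (0.34), and it passed the test with the replicate block (limma adjusted p = 0.0141).

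**Figure D2:**
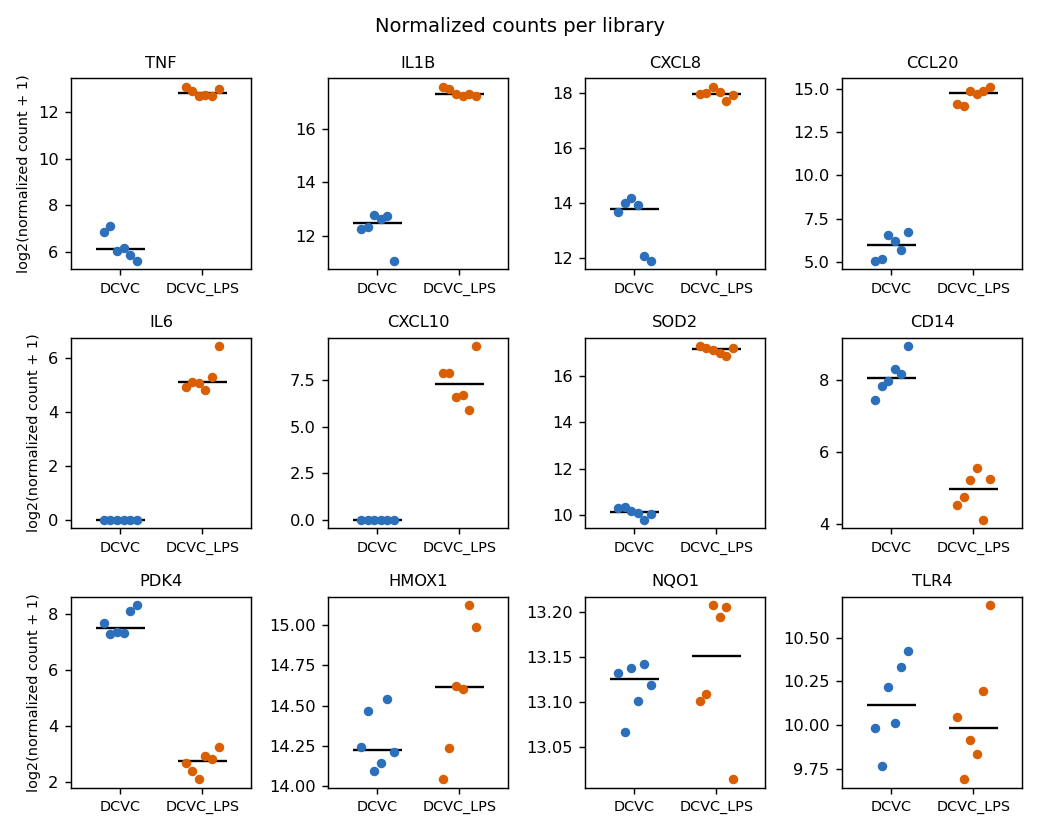
Normalized counts per library (vertical axis, log2 of value + 1) in the 6 DCVC libraries (blue) and the 6 DCVC_LPS libraries (orange) for 12 genes, with the group median as a bar and a vertical scale of its own in each panel that need not start at 0. The groups do not overlap in TNF, IL1B, CXCL8, CCL20, IL6, CXCL10, SOD2, CD14 and PDK4, and they overlap in HMOX1, NQO1 and TLR4.

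Genes of the LPS receptor and its adaptors moved both ways, as did all genes (29.9% rose and 32.2% fell). Of 23 genes of the TLR4 complex and its adaptors, 9 rose and 8 fell, with a median log2 change of 0.20 and, under equal totals, 9 and 10 at -0.10. TLR4 (chromosome 9, 117704175 to 117724730, plus strand) ranged from 869 to 1374 (median 1110.1) in DCVC and from 826 to 1645 (median 1010.5) in DCVC_LPS and was not called (log2 change -0.06 ± 0.14, limma adjusted p = 0.708), and under equal totals its change was -0.36 with adjusted p = 0.0243. CD14 (chromosome 5, 140631728 to 140633701, minus strand), the co-receptor that hands LPS to TLR4, ranged from 171 to 487 (median 267) in DCVC and from 16.3 to 45.9 (median 30.9) in DCVC_LPS (log2 change -3.21 ± 0.28, limma adjusted p = 3.03e-10), with all DCVC_LPS libraries below the DCVC libraries. CD180, a TLR4-like inhibitory receptor, fell (-2.22). The TLR4 partner LY96 fell by less (-0.50), and its call was lost without DCVC replicate B, C or D and without DCVC_LPS replicate A, E or F (limma adjusted p from 0.0527 to 0.104).

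Downstream, the kinase IRAK2 (chromosome 3, 10164865 to 10243743, plus strand) ranged from 136 to 264 (median 177) in DCVC and from 6780.2 to 7712 (median 7110.4) in DCVC_LPS (log2 change 5.21 ± 0.16, limma adjusted p = 6.96e-19), and the ubiquitin ligase PELI1 rose by 2.98, TRAF3 by 2.20, the TICAM1 adaptor by 2.37 and TAB2 by 1.57. TAB1 (-0.89) and IRAK3, an inhibitory pseudokinase (-1.19), fell. MYD88 (0.23) was not called, and it passed the test without DCVC_LPS replicate E (0.31, limma adjusted p = 0.0437).

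Of the 29 cytokine receptors tested, 14 rose and 10 fell, at a median of 0.63 (13 and 12 at 0.35 under equal totals). IL18R1, the binding chain of the interleukin-18 receptor, ranged from 1.78 to 6.72 (median 3.89) in DCVC and from 366 to 701 (median 599.6) in DCVC_LPS (log2 change 6.90 ± 0.36, limma adjusted p = 1.99e-14), and its partner IL18RAP is described above. TNFRSF9 rose by 4.81, IL1R1 by 2.81, IL7R by 2.66, the decoy receptor IL1R2 by 2.56 and IFNGR2 by 2.38. TGFBR2 (chromosome 3, 30606502 to 30694142, plus strand), the ligand-binding TGF-beta receptor, ranged from 1109.6 to 1723 (median 1268) in DCVC and from 119 to 231 (median 177) in DCVC_LPS (log2 change -2.91 ± 0.16, limma adjusted p = 9.07e-14). TGFBR1 (-1.37), IL17RA (-1.81), CSF1R, the receptor for macrophage growth factor (-1.17), and TNFRSF1A (-0.67) fell.

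All 23 of 23 NF-kB subunits, inhibitors and feedback genes rose, with a median of 3.70 (21 rose and 0 fell under equal totals). The subunits NFKB1, NFKB2, REL, RELB and RELA rose by 3.25, 3.70, 4.24, 3.77 and 0.85 on the log2 scale. TNFAIP3 (chromosome 6, 137867188 to 137883312, plus strand), the ubiquitin-editing inhibitor A20, ranged from 197 to 322 (median 290.2) in DCVC and from 11595 to 15132 (median 13697) in DCVC_LPS (log2 change 5.58 ± 0.15, limma adjusted p = 6.47e-20). NFKBIA (chromosome 14, 35401511 to 35404749, minus strand), which holds NF-kB in the cytoplasm, ranged from 609 to 1448 (median 1318) in DCVC and from 16630.5 to 20944 (median 19058) in DCVC_LPS (log2 change 4.12 ± 0.24, limma adjusted p = 2.5e-13). TNIP1 (chromosome 5, 151029945 to 151093577, minus strand), which binds A20, ranged from 1524 to 1754 (median 1616) in DCVC and from 20320.2 to 24725 (median 23777) in DCVC_LPS (log2 change 3.84 ± 0.08, limma adjusted p = 4.61e-22). In each of them all DCVC_LPS libraries stood above all DCVC libraries. NFKBIZ, TRAF1 and BIRC3 rose by 5.29, 6.90 and 6.82, and TNFAIP2, a TNF-induced gene, ranged from 1705 to 2347 (median 2242) in DCVC and from 48806 to 53431 (median 52493) in DCVC_LPS (log2 change 4.59 ± 0.10, limma adjusted p = 1.66e-21).

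Feedback regulators of inflammation, a list of its own, rose in 14 of 22 cases and fell in 5, at a median of 1.39 (12 and 6 under equal totals). SOCS3 (chromosome 17, 78356778 to 78360077, minus strand), an inhibitor of cytokine receptor signalling, ranged from 5.35 to 12.8 (median 10.5) in DCVC and from 739.6 to 1459.6 (median 1042) in DCVC_LPS (log2 change 6.62 ± 0.23, limma adjusted p = 1.13e-17). ZC3H12A, a ribonuclease that degrades cytokine mRNA, ranged from 695 to 858 (median 739) in DCVC and from 8192 to 11120.1 (median 8918) in DCVC_LPS (log2 change 3.63 ± 0.12, limma adjusted p = 2.86e-18). DUSP1, a MAP kinase phosphatase, rose by 3.21 and SOCS1 by 2.05. The falls were CISH (-1.89), the glucocorticoid-induced TSC22D3 (-1.74), SIGIRR (-1.04), the mRNA-decay factor ZFP36L1 (-0.89) and TNFAIP8L2 (-0.44).

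Of 26 immediate early genes 16 rose and 3 fell, at a median of 0.79 (14 and 5 under equal totals). IER3 rose by 4.09, MAFF by 2.51, ATF3 by 2.28 and JUNB by 2.24, and KLF4 (-1.83), BATF (-1.53) and FOS (-1.07) fell. EGR1 (-0.26), which responds within minutes of a stimulus, was not called at 4 h over all letters, and passed the test within the letters A and B and within C and D.

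Most interferon genes rose. Of 44 interferon and interferon-stimulated genes 38 rose and 2 fell, with a median log2 change of 1.70 (33 and 2 at 1.40 under equal totals, 35 and 2 at 1.35 without DCVC_LPS replicate F). IFNB1 (chromosome 9, 21077105 to 21077963, minus strand), interferon beta, had no read over DCVC and ranged from 1.08 to 13.6 (median 6.26) in DCVC_LPS, at least 14.2-fold higher. The antiviral genes OASL, IFIT1, MX1 and IFIT2 rose by 4.77, 4.58, 3.65 and 3.39. GBP2 (chromosome 1, 89106132 to 89150456, minus strand), an interferon-induced GTPase, ranged from 93.8 to 173 (median 129) in DCVC and from 1376 to 4655 (median 2229) in DCVC_LPS (log2 change 4.26 ± 0.23, limma adjusted p = 6.33e-14). ISG15 and IRF1 rose by 1.66 and 0.98, and the transcription factors IRF3 (-0.50) and IRF5 (-1.06) fell.

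Genes of costimulation and maturation rose in 15 of 19 cases and fell in 3, at a median of 2.26. CD83 (chromosome 6, 14117256 to 14136918, plus strand), a dendritic cell maturation marker, ranged from 181 to 252 (median 220.0) in DCVC and from 7663 to 11188 (median 8293) in DCVC_LPS (log2 change 5.38 ± 0.14, limma adjusted p = 7.76e-20). KYNU, an enzyme of tryptophan breakdown, rose by 3.23, CD274, which encodes PD-L1, by 3.99, CD44 by 3.90, CD40 by 3.63 and CD86 by 2.20. The chemokine receptor CCR7 ranged from 6.22 to 19.5 (median 10.9) in DCVC and from 25.5 to 107 (median 49.6) in DCVC_LPS (log2 change 2.04 ± 0.38, limma adjusted p = 4.86e-05). TNFSF4 (-1.15), SLAMF1 (-1.27) and FSCN1 (-0.28) fell.

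The median changes of the antigen presentation lists were small, although single members changed more than 2-fold. Of 21 MHC class I genes 12 rose and 3 fell, at a median of 0.32, and under equal totals 6 rose and 6 fell at 0.02. HLA-E rose by 1.46, the peptide transporter TAP1 by 1.28 and HLA-B by 0.65, and NLRC5, the transactivator of class I genes, fell (-0.87). HLA class I genes resemble each other and can share reads. Of 9 class II genes 2 rose and 1 fell, with 0 and 3 under equal totals and 1 and 1 without DCVC_LPS replicate C or without DCVC replicate E, and HLA-DRA (0.05) and CD74 (0.11) were not called.

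The largest falls were smaller than the largest rises and joined a mixed set of genes. PDK4 (chromosome 7, 95583499 to 95596491, minus strand), which inhibits pyruvate dehydrogenase, ranged from 156 to 318 (median 184) in DCVC and from 3.35 to 8.53 (median 5.80) in DCVC_LPS (log2 change -4.98 ± 0.39, limma adjusted p = 4.8e-11). MTUS1 (chromosome 8, 17643795 to 17800917, minus strand), a microtubule-associated protein, ranged from 521 to 718 (median 687) in DCVC and from 14.5 to 36.6 (median 28.2) in DCVC_LPS (log2 change -4.53 ± 0.18, limma adjusted p = 1.74e-16). SNAI3 (chromosome 16, 88677682 to 88686493, minus strand), a Snail-family repressor, ranged from 119 to 175 (median 132) in DCVC and from 2.04 to 9.13 (median 5.85) in DCVC_LPS (log2 change -4.53 ± 0.31, limma adjusted p = 5.33e-12). DCVC_LPS libraries lay below all DCVC libraries in every case, which was a condition of the choice.

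NLRC4 (chromosome 2, 32224453 to 32265854, minus strand), a sensor protein of the inflammasome, ranged from 225 to 322 (median 232) in DCVC and from 7.53 to 26.5 (median 14.2) in DCVC_LPS (log2 change -4.18 ± 0.36, limma adjusted p = 2.93e-10). NRROS (chromosome 3, 196639686 to 196662004, plus strand), which anchors latent TGF-beta on myeloid cells, ranged from 2785 to 3465 (median 2993) in DCVC and from 178 to 268 (median 217) in DCVC_LPS (log2 change -3.81 ± 0.11, limma adjusted p = 2.05e-19). ADAMTS15 (chromosome 11, 130448974 to 130476641, plus strand), a secreted metalloprotease, ranged from 1247 to 1779 (median 1415) in DCVC and from 94.0 to 159.5 (median 102) in DCVC_LPS (log2 change -3.72 ± 0.18, limma adjusted p = 7.78e-15). None of the groups overlapped, again by the rule of choice. The pseudokinase scaffold PEAK3 (-4.51), the motilin receptor MLNR (-3.93), the adaptor SLA (-3.81), PRR5L (-3.75), the fucosyltransferase FUT7 (-3.74), the ubiquitin ligase RNF125 (-3.67), TNFAIP8L3 (-3.67), CALHM2 (-3.61) and IPCEF1 (-3.58) completed the 15 largest falls.

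Myeloid transcription factors moved both ways, with 15 of 23 raised and 5 lowered (13 and 6 under equal totals). MAF (chromosome 16, 79585843 to 79600714, minus strand), a factor of resting macrophages, ranged from 1165 to 2014 (median 1239) in DCVC and from 106 to 165 (median 133) in DCVC_LPS (log2 change -3.43 ± 0.27, limma adjusted p = 5.14e-11). CEBPA (chromosome 19, 33299934 to 33302564, minus strand) ranged from 8387 to 13689 (median 10016) in DCVC and from 1501 to 2140.5 (median 1905) in DCVC_LPS (log2 change -2.50 ± 0.15, limma adjusted p = 3.71e-13), whereas its relatives CEBPB and CEBPD rose by 1.92 and 1.94 and CEBPE fell (-2.57). STAT4, KLF5, STAT5A, ETV3 and HIF1A rose by 5.01, 3.85, 2.79, 2.74 and 1.92, and the lineage factor SPI1 by 0.46 (0.16 with adjusted p = 0.387 under equal totals).

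Scavenger, Fc and clearance receptors fell more often than they rose, 9 against 2 of 22 (14 against 1 under equal totals). MERTK (chromosome 2, 111898479 to 112029561, plus strand), a receptor for apoptotic cells, ranged from 1786 to 3256 (median 2230.4) in DCVC and from 227 to 469 (median 382) in DCVC_LPS (log2 change -2.78 ± 0.25, limma adjusted p = 8.13e-10). OLR1 (chromosome 12, 10158301 to 10172138, minus strand), the receptor for oxidised LDL, ranged from 38.1 to 169 (median 47.7) in DCVC and from 2845 to 6575 (median 3500.1) in DCVC_LPS (log2 change 5.93 ± 0.34, limma adjusted p = 1.44e-13). FCGR1A (-1.48) and CD209 (-0.90) fell, and FCGR genes have close copies. Among 26 G-protein-coupled receptors and RGS genes 10 rose and 12 fell (8 and 13 under equal totals). GPR132 rose by 3.18, and the chemokine receptors CCR2, CX3CR1 and CCR1 had log2 changes of -3.86, -2.79 and -2.04, all called. The adenosine receptors ADORA3 (-3.28) and ADORA2B (-1.34) fell, against the rise of ADORA2A, whose reads may be shared with ADORA2A-AS1.

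In cells already exposed to DCVC, most of the NRF2 list was higher in DCVC_LPS than in DCVC. Of 34 genes 22 rose and 1 fell, at a median of 0.57 (17 and 3 under equal totals). In cells without DCVC, LPS raised 19 of the 34 and lowered 8, at a median of 0.39 on the deposited scale. SLC7A11 (chromosome 4, 138164097 to 138242349, minus strand), the cystine importer, ranged from 3248 to 5445 (median 4952) in DCVC and from 19065 to 23423 (median 21657) in DCVC_LPS (log2 change 2.28 ± 0.31, limma adjusted p = 6.84e-07). TXNRD1 (chromosome 12, 104215779 to 104350305, plus strand), thioredoxin reductase, ranged from 22928 to 29558 (median 27972) in DCVC and from 85001 to 91304 (median 85877) in DCVC_LPS (log2 change 1.69 ± 0.09, limma adjusted p = 1.33e-14). GCLM (chromosome 1, 93885205 to 93909456, minus strand), the regulatory subunit of glutathione synthesis, ranged from 3855 to 4157 (median 3979) in DCVC and from 9587 to 12486 (median 11331) in DCVC_LPS (log2 change 1.47 ± 0.10, limma adjusted p = 2.48e-12). All DCVC_LPS libraries were above the DCVC range in these genes.

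HMOX1 (chromosome 22, 35380361 to 35394214, plus strand), haem oxygenase 1, ranged from 17472 to 23852 (median 19172) in DCVC and from 16889 to 35663 (median 25048) in DCVC_LPS and was not called (log2 change 0.32 ± 0.22, limma adjusted p = 0.208). Its DCVC_LPS libraries were spread and overlapped the DCVC libraries, with 4 of 6 above all of them, and within the letters C and D the change was 0.50 (limma adjusted p = 2.65e-07) and within E and F 0.68 (limma adjusted p = 0.0122). NQO1 (chromosome 16, 69706996 to 69726951, minus strand), the quinone reductase, ranged from 8578 to 9037 (median 8936) in DCVC and from 8277 to 9456 (median 9103) in DCVC_LPS and was not called (log2 change 0.02 ± 0.13, limma adjusted p = 0.894). SQSTM1, OSGIN1 and SRXN1 rose by 2.07, 2.05 and 1.93, NFE2L2 by 1.79 and KEAP1 by 1.08, and the biliverdin reductase BLVRB fell (-0.49). AKR1C1 rose by 1.59 while its close copies AKR1C2 (-0.19) and AKR1C3 (-0.16) were not called, and reads may be split among them.

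Of 19 metal handling and oxidant enzyme genes 8 rose and 4 fell (7 and 6 under equal totals). SOD2, mitochondrial superoxide dismutase, ranged from 889.8 to 1299 (median 1126) in DCVC and from 119106 to 157006 (median 145476) in DCVC_LPS (log2 change 6.97 ± 0.20, limma adjusted p = 2.9e-19), the largest change of the list. The zinc and iron importer SLC39A14 rose by 3.08 and the iron transporter SLC11A2 by 1.78, whereas SLC11A1 (-1.13), the oxidase subunit NCF4 (-0.87) and the catalase gene CAT (-0.78) fell. MT1F fell (-1.42) and MT2A rose by 1.80, and metallothionein genes are close copies.

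Energy metabolism genes moved both ways, beside 29.9% rising and 32.2% falling of all genes (16.3% and 52.7% under equal totals). Of 27 glycolysis and hypoxia genes 11 rose and 4 fell on the deposited scale and 4 rose and 14 fell under equal totals. SLC2A6 (chromosome 9, 133471095 to 133479137, minus strand), a lysosomal hexose transporter, ranged from 184 to 345 (median 241) in DCVC and from 7365 to 9651 (median 8248) in DCVC_LPS (log2 change 5.04 ± 0.18, limma adjusted p = 1.12e-17). PFKFB3, an activator of glycolysis, rose by 2.27 and its relative PFKFB4 fell (-1.49). The glucose transporter SLC2A3 (-2.33) and the hexokinase HK1 (-1.01) fell, and SLC2A1 rose by 0.98. Of 19 TCA cycle genes 4 rose and 5 fell (0 and 14 under equal totals), with the isocitrate dehydrogenases IDH1 (-1.21) and IDH2 (-0.81) among those that fell on both scales.

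All 13 mitochondrially encoded transcripts rose, at a median of 0.46, and 1 of 13 rose under equal totals at a median of 0.16. Their share of reads was 1.70 ± 0.20% in DCVC and 1.92 ± 0.21% in DCVC_LPS (mean ± SD, n = 6). Of 12 reference genes often taken as stable, 7 rose and 0 fell at a median of 0.19, against 1 and 5 under equal totals, 8 and 2 with the replicate block, and 6 and 1 without DCVC replicate A or 7 and 1 without DCVC_LPS replicate F. The largest of these was the transferrin receptor TFRC (1.05).

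Of 20 ATF4 stress genes 9 rose and 7 fell, and 8 rose and 9 fell under equal totals. DDIT4, an mTORC1 inhibitor, ranged from 54.4 to 118 (median 81.2) in DCVC and from 923 to 1132 (median 982) in DCVC_LPS (log2 change 3.66 ± 0.15, limma adjusted p = 1.53e-16), and CHAC1, MTHFD2 and SLC7A1 rose by 3.01, 1.89 and 1.72. GPT2 (-1.89), NUPR1 (-1.60) and PSAT1 (-0.77) fell. Of 23 unfolded protein and heat shock genes 8 rose and 2 fell (3 and 7 under equal totals), with XBP1 up by 1.36, DNAJB9 up by 1.12 and HSPB1 lower (-0.91).

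Sterol and fatty acid synthesis genes rose in 5 of 22 cases and fell in 2 (3 and 4 under equal totals, 7 and 8 with the replicate block). Without DCVC replicate B the counts were 7 and 1, without DCVC replicate F 3 and 3, and without DCVC_LPS replicate C or D 5 and 1. INSIG1, a brake on sterol synthesis, rose by 1.64. Of 13 LXR target and efflux genes 4 rose and 3 fell (2 and 3 under equal totals), with the cholesterol exporter ABCA1 up by 2.00 and the cholesterol-esterifying enzyme SOAT1 lower (-0.57).

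Of 20 lysosome genes 2 rose and 4 fell (1 and 15 under equal totals, 5 and 6 with the replicate block). ATP6V0D2, a proton pump subunit, fell (-1.57), and the galactosidase GLA rose by 0.81. Cell cycle genes fell in 12 of 27 cases and rose in 5 (14 and 3 under equal totals). AURKA, TOP2A, CCND3, PCNA and MCM3 had log2 changes of -1.73, -1.30, -1.22, -0.96 and -0.89, and CDK6, CCND1 and the inhibitor CDKN1A rose by 1.53, 1.42 and 0.86.

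Of 16 inflammasome genes 6 rose and 5 fell (8 fell under equal totals and also with the replicate block). CASP5 rose by 4.08, AIM2 by 2.65, NINJ1, which ruptures the membrane in lytic death, by 2.61 and NLRP3 by 1.13. PYCARD (chromosome 16, 31201485 to 31203450, minus strand), the adaptor ASC, ranged from 962 to 1171 (median 1047) in DCVC and from 209.8 to 359 (median 248) in DCVC_LPS (log2 change -1.98 ± 0.13, limma adjusted p = 2.45e-12). MEFV (-1.94) and CASP1 (-0.56) fell.

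Apoptosis regulators rose in 11 of 21 cases and fell in 4 (10 and 7 under equal totals). BCL2A1 (chromosome 15, 79960889 to 79971446, minus strand), an NF-kB-dependent survival gene, ranged from 73.8 to 153 (median 92.8) in DCVC and from 2971 to 4482 (median 3518) in DCVC_LPS (log2 change 5.10 ± 0.16, limma adjusted p = 1.73e-18). CFLAR, which blocks caspase-8, rose by 2.90, and the death effectors PMAIP1, BBC3 and BID rose by 2.19, 1.49 and 1.34. MLKL, the effector of necroptosis (-2.23), RIPK3 (-0.82), CASP8 (-0.78) and BAK1 (-0.67) fell.

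In the eicosanoid list 6 of 14 genes rose and 5 fell (4 and 9 under equal totals, 6 and 7 with the replicate block). PTGS2 (chromosome 1, 186671791 to 186680427, minus strand), inducible cyclooxygenase, ranged from 48.2 to 118 (median 92.7) in DCVC and from 1033 to 1871 (median 1438) in DCVC_LPS (log2 change 3.97 ± 0.28, limma adjusted p = 8.2e-12). The prostaglandin E2 receptors PTGER2 and PTGER4 rose by 3.69 and 2.93, and ALOX5, which starts leukotriene synthesis, fell (-1.21).

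Among 17 adhesion genes 4 rose and 4 fell (9 and 5 with the replicate block, 4 and 6 under equal totals). ICAM1 (chromosome 19, 10270835 to 10286615, plus strand), a ligand of leukocyte integrins, ranged from 1597 to 2378 (median 1809.7) in DCVC and from 22345 to 26568 (median 23166) in DCVC_LPS (log2 change 3.63 ± 0.12, limma adjusted p = 7.89e-18), and the integrin ITGB8 rose by 4.75. ITGA4 (-1.33), PECAM1 (-1.22) and ITGAL (-1.04) fell. Of 19 matrix protease and inhibitor genes 8 rose and 1 fell (7 and 2 under equal totals), among them MMP10 (3.10), SERPINB2 (2.86), MMP12 (2.08) and PLAUR (0.95), with TIMP2 lower (-0.57).

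**Figure D3:**
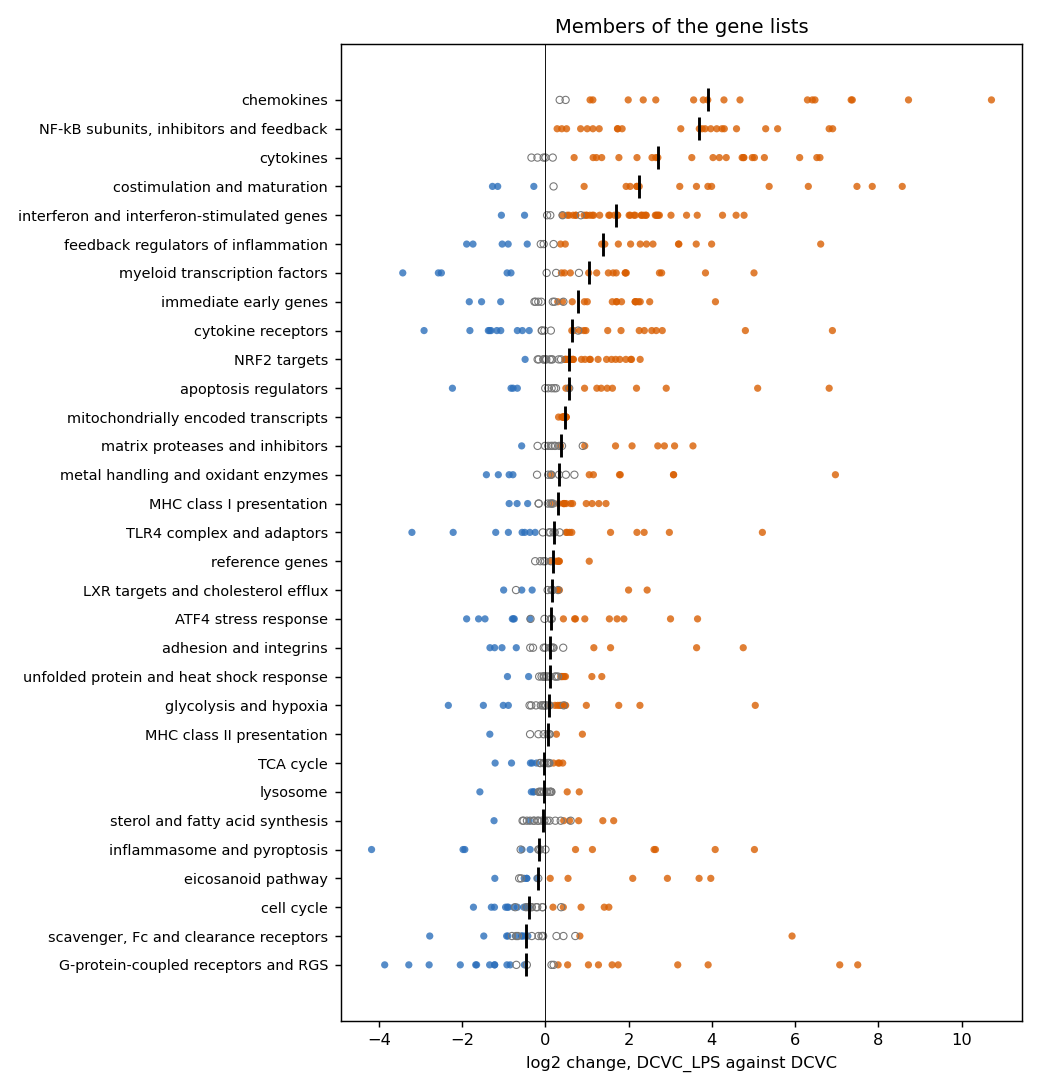
Log2 change in DCVC_LPS against DCVC (horizontal axis, log2 units) of each tested member of 31 gene lists (rows), with members that rose filled in orange, those that fell filled in blue, the others open in grey and the list median as a bar. The NF-kB, cytokine and chemokine medians lie at 3.70, 2.70 and 3.90, and 13 of 13 mitochondrially encoded transcripts lie between 0.32 and 0.50, on the deposited scale.

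The response was set beside that of cells without DCVC, from the LPS and Control libraries, which share no library with DCVC_LPS and DCVC. LPS alone changed 78.4% of the 13900 genes, raising 5253 (37.8%) and lowering 5639 (40.6%). Of the genes, 3635 rose in both comparisons, which is 87.4% of those raised with DCVC and 69.2% of those raised without it, and 3869 fell in both, 86.5% and 68.6%. At least 2-fold rises were shared by 1026 genes, 87.5% of the 1173 with DCVC and 44.6% of the 2301 without it, and 2-fold falls by 1195, 84.8% and 43.0%. In opposite directions, 114 genes rose with DCVC and fell without it and 189 did the reverse, of which 5 and 20 changed at least 2-fold both ways.

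The change with DCVC minus the change without it was tested gene by gene in the same limma fit, and 45.7% of genes were called. It is computed in part from the DCVC_LPS and DCVC libraries of the main comparison, so both changes are given side by side. It was positive in 3053 genes (22%) and negative in 3297 (23.7%) on the deposited scale, in 4600 (33.1%) and 2232 (16.1%) under equal totals and in 4069 and 2529 with TMM scaling, so the sign of small differences depends on the scale. Equal totals moved the median of this difference by 0.18. Differences of at least 4-fold were positive in 122 genes and negative in 315, and those of at least 16-fold in 2 and 49.

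In the interferon, cytokine, chemokine and costimulation lists nearly all called differences were negative. Members that passed the filter only through the LPS libraries, such as CSF2, were bound to tend that way. Of the 44 interferon genes 41 were negative and 1 positive (40 and 1 under equal totals, 12 and 0 within the letters E and F), with median LPS changes of 1.70 with DCVC and 4.13 without it. Cytokines gave 21 negative and 0 positive of 27 (20 and 0), with medians of 2.70 and 5.01, and chemokines 15 and 1 of 19 (15 and 1, but 9 and 1 by edgeR on the recovered reads), with medians of 3.90 and 7.12. Costimulation genes gave 13 and 1 of 19 (13 and 1, but 11 and 0 within the letters E and F), with medians of 2.26 and 5.02. The NF-kB list gave 13 negative and 1 positive of 23 (11 and 2 under equal totals, 13 and 0 without DCVC replicate E, Control replicate B or DCVC_LPS replicate A or B, 13 and 2 without Control replicate F), with list medians of 3.70 and 3.80, and the NRF2 list gave 15 positive and 2 negative of 34 (19 and 1 under equal totals, 17 and 4 with the replicate block, 8 and 5 within the letters E and F). The median of the gene-by-gene differences was -2.40 for the interferon list, -2.20 for cytokines, -1.74 for chemokines, -1.91 for costimulation, -0.68 for NF-kB and 0.32 for NRF2. Called differences were also negative without exception in 13 of 21 MHC class I genes (9 negative and 2 positive under equal totals, 3 and 0 within the letters E and F, 13 and 1 without Control replicate F, 14 and 1 with the replicate block), 5 of 13 mitochondrially encoded transcripts (1 and 0 under equal totals), 4 of 9 MHC class II genes (3 and 1 under equal totals, 4 and 1 without Control replicate B) and 4 of 19 matrix protease genes (3 and 1 under equal totals). The share over all genes was 23.7% negative and 22% positive (16.1% and 33.1% under equal totals). The count of negative differences among matrix protease genes was near that share and shows nothing particular to them. In the lysosome list all called differences were positive, 6 of 20 (10 positive and 0 negative under equal totals). Scavenger, Fc and clearance receptors gave 7 positive and 3 negative of 22 (8 and 2 under equal totals).

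CCR7, which guides cells to lymph nodes, changed by 2.04 with DCVC and 10.57 without it, a difference of -8.54 ± 0.53 (limma adjusted p = 2.02e-11). NR4A3, a nuclear receptor, ranged from 41.9 to 207 (median 80.7) in DCVC and from 223 to 518 (median 274) in DCVC_LPS and changed by 1.71 with DCVC and 9.32 without it, a difference of -7.61 ± 0.45 (limma adjusted p = 1.03e-11). CCL2 changed by 1.14 with DCVC and 6.34 without it, a difference of -5.20 ± 0.54 (limma adjusted p = 4.11e-08), TNFAIP2 by 4.59 with DCVC and 7.40 without it, a difference of -2.80 ± 0.14 (limma adjusted p = 9.44e-13) and SOCS3 by 6.62 with DCVC and 9.27 without it, a difference of -2.66 ± 0.33 (limma adjusted p = 5.99e-07). These rose with LPS in both settings and by less with DCVC on the log2 scale, which compares ratios and not levels. Mean levels of TNFAIP2 were 773 in Control and 2167 in DCVC, against 130578 in LPS and 52058 in DCVC_LPS. Its lower ratio with DCVC thus came with a higher level before LPS and a lower level after it. For SOCS3 the means were 16.4 in Control and 9.66 in DCVC, against 10144.5 in LPS and 1047 in DCVC_LPS. TNF changed by 6.52 with DCVC and 8.38 without it, a difference of -1.85 ± 0.49 (limma adjusted p = 0.00353) and IL23A by 6.11 with DCVC and 9.17 without it, a difference of -3.05 ± 0.42 (limma adjusted p = 2.28e-06). IDO1 changed by 6.32 with DCVC and 12.86 without it, a difference of -6.54 ± 0.54 (limma adjusted p = 1.61e-09). IL6 changed by 5.26 and 11.03, a difference of -5.77 ± 0.37 (limma adjusted p = 2.41e-11). Mean levels of IDO1 were 130 in DCVC_LPS and 7985 in LPS, and those of IL6 40.7 and 2504. Neither had more than 3 reads over DCVC or over Control. They passed the filter through the libraries with LPS, and their fitted changes depend on the pseudocount. For IL1B the changes were 5.02 with DCVC and 5.01 without it, a difference of 0.01 ± 0.38 (limma adjusted p = 0.984), which does not show that it responded alike.

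Some genes had a higher log2 change with DCVC than without it, which compares ratios and not levels. BCL2A1 changed by 5.10 with DCVC and 3.83 without it, a difference of 1.27 ± 0.23 (limma adjusted p = 7.87e-05), and TAB2 by 1.57 with DCVC and 0.84 without it, a difference of 0.73 ± 0.10 (limma adjusted p = 1.65e-06). Mean levels of TAB2 were 2491 in DCVC and 7379 in DCVC_LPS, against 7065 in Control and 12616 in LPS. Its ratio was thus higher with DCVC while its level was lower. HMOX1, which was not called with DCVC, changed by 0.32 with DCVC and -2.63 without it, a difference of 2.95 ± 0.31 (limma adjusted p = 4.75e-08), and ranged from 4587 to 7268 (median 5464) in Control and 526 to 1496 (median 1069) in LPS.

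**Figure D4:**
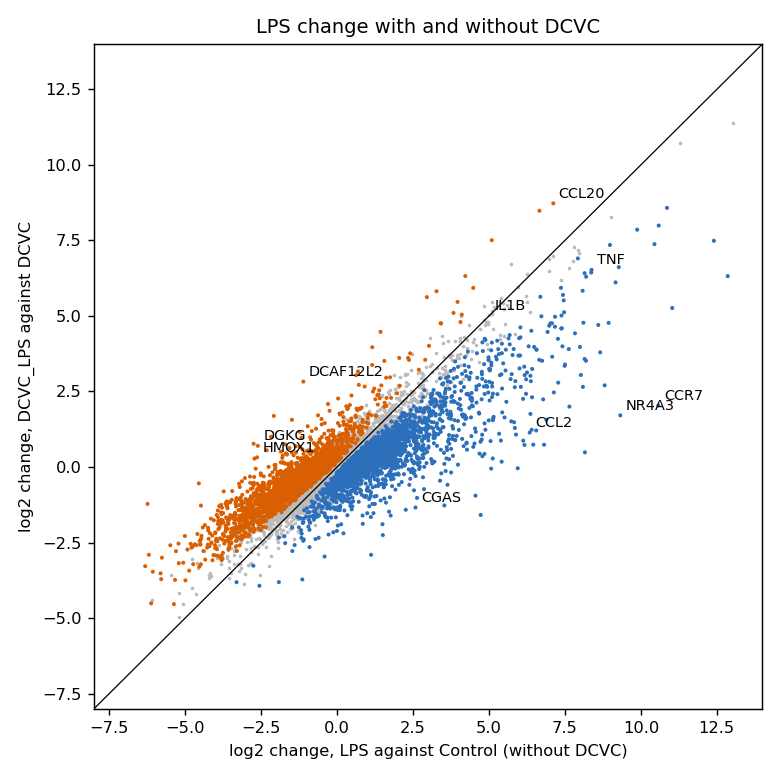
Log2 change with LPS in cells with DCVC (vertical axis) against that in cells without DCVC (horizontal axis) for the 13900 tested genes, with the line of equal change. Genes with a called positive difference are orange (3053) and those with a called negative difference blue (3297), the others grey, and CCR7, NR4A3 and CCL2 lie far below the line while DCAF12L2, DGKG and HMOX1 lie above it.

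Genes called at least 2-fold in opposite directions were few. DCAF12L2 (chromosome X, 126163499 to 126166097, minus strand) ranged from 73.8 to 114 (median 89.0) in DCVC and from 492 to 730.2 (median 678) in DCVC_LPS and changed by 2.83 with DCVC and -1.11 without it, a difference of 3.94 ± 0.26 (limma adjusted p = 4.05e-11), and its close relative DCAF12L1 by 1.17 with DCVC and -1.24 without it, a difference of 2.41 ± 0.31 (limma adjusted p = 1.09e-06), and as copies on the same chromosome they may share reads. SEMA6B, a semaphorin, ranged from 145 to 216 (median 168) in DCVC and from 41.9 to 73.6 (median 65.2) in DCVC_LPS and changed by -1.48 with DCVC and 1.71 without it, a difference of -3.19 ± 0.25 (limma adjusted p = 6.79e-10). CGAS, the DNA sensor that makes cyclic GMP-AMP, ranged from 205 to 294 (median 218) in DCVC and from 59.2 to 175 (median 83.3) in DCVC_LPS and changed by -1.34 with DCVC and 2.58 without it, a difference of -3.92 ± 0.29 (limma adjusted p = 2.68e-10). In SEMA6B and CGAS all DCVC_LPS libraries lay below all DCVC libraries. NUAK2, a stress kinase, changed by -2.90 with DCVC and 1.12 without it, a difference of -4.02 ± 0.54 (limma adjusted p = 1.83e-06), the oxysterol receptor GPR183 by -1.65 with DCVC and 1.11 without it, a difference of -2.77 ± 0.56 (limma adjusted p = 0.000288) and ARID5A, which stabilises cytokine mRNA, by -1.10 with DCVC and 1.44 without it, a difference of -2.54 ± 0.39 (limma adjusted p = 1.07e-05). DGKG, a diacylglycerol kinase, was called in opposite directions with a rise under 2-fold and changed by 0.70 with DCVC and -2.61 without it, a difference of 3.31 ± 0.21 (limma adjusted p = 2.41e-11).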

How the data were processed

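The 24 poly-A RNA libraries were sequenced in groups of 6 (Control, DCVC, LPS and DCVC_LPS), and the members and gene lists were chosen with earlier results of these data known. The authors deposited 1 table of normalized signal per gene, per the labels, in which each library's read counts were divided by a factor per library. The submitters' processing notes name hg38, STAR, DESeq2 1.24.0, R 3.6.0, MultiQC 0.9, featureCounts 1.6.1 and FastQC 0.11.5, with no roles. Not given in the sources used here were the STAR version, the annotation, the use of strand and the treatment of reads with several hits.

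Entries without a gene name (19595 of 58381, 33.6%, holding 0.828 to 1.13% of a library's values) were left out, and 51 symbols on 2 entries were summed. Named genes (38735) entered the test if they averaged 10 or more across all 24 libraries, which left 13900, tested with limma 3.58.1 (R 4.3.3) on log2(value + 1), so fold changes of low genes are understated. The fit had a mean per group over all 24 libraries, a trend, and Benjamini-Hochberg adjustment over all genes tested, with 0.05 as the threshold. A ± beside a log2 value is its standard error. Whole reads were recovered from the values (100% within 0.1 read), and edgeR 4.0.16 called 3768 raised and 5017 lowered genes and DESeq2 1.42.0 called 4283 and 4613 on them. On simulated data for DCVC_LPS against DCVC with 13900 genes, limma recovered 95% of 100 genes changed 2-fold and 98% of 100 changed 4-fold, with 6 calls among 13700 unchanged genes. The simulated libraries were independent, with the same dispersion for all genes, few changed genes and known scaling. The simulation therefore checks the code and does not give the error rate of the real calls.

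Deviations from the group means correlated at 0.249 to 0.467 between DCVC and DCVC_LPS libraries of the same letter, against -0.367 to -0.0194 for letters of different pairs (A with B, C with D, E with F) and 0.162 to 0.405 for the other letter of a pair. All 6 same-letter values exceed 0.1, but so do those for the other letter of a pair, so they do not single out the same letter. The letters were taken to pair the libraries, from the data and not from a label that says so. Within a group, deviations of A and B correlated at 0.444 in DCVC and 0.388 in DCVC_LPS, against -0.525 and -0.470 for A and E. The main fit and the permutation test treated the 6 libraries of a group as independent and unpaired. No libraries of a group agreed within sampling noise (lowest chi-square per degree of freedom 3.32). Alternatives were another pseudocount, other filters, equal totals, TMM scaling, edgeR, DESeq2, the replicate block, the letter pair as a covariate, fits within letter pairs, the 12 libraries alone and each library left out.

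Named genes were the 15 largest rises and falls among genes averaging 50 or more with separate groups, genes with at most 3 reads in 1 of the groups, up to 3 rises and 3 falls per list by adjusted p, the largest differences between the LPS changes, genes called at least 2-fold in opposite directions, and a set of inflammation and NRF2 genes. Other list members named were chosen after their values were seen. Gene positions are from GENCODE 29 (GRCh38), in which 13526 of the 13900 symbols were found, and promoters are from RefSeq. Some genes are not reported here.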

Additional observations from a re-analysis of the deposited data

Results flagged for a closer look

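In 44 of 512 groups of 6 (8.59%), over the 256 genes named with values, 1 library lay farther from its nearest neighbour than the 95% limit for 6 samples on the log2(value + 1) scale. Chance flags about 1 in 20 groups, and genes of 1 library are not independent. The values that follow are normalized counts of that library against the range of the other 5.

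DCVC_LPS replicate F accounted for 22 of them, 19 above the others. Chemokine and cytokine genes in which it was high were CCL3 (63697 against 44531 to 47434), CCL3L3 (106938 against 66628 to 75016), CCL4 (36544 against 20267 to 24657), CCL4L2 (72420.2 against 42759 to 46263) and CCL5 (37081 against 16704 to 22359.6). Further such genes were IL6 (84.5 against 26.7 to 37.8) and TNFSF4 (40.9 against 26.6 to 31.0). Signalling, interferon-stimulated and surface genes in which it was high were HLA-B (32620.5 against 25296 to 27054), IDO1 (391 against 61.3 to 112), IL7R (1734 against 626 to 836), ISG15 (5406 against 1175 to 1802) and LAMP3 (1509 against 416 to 618). Further such genes were MYD88 (1564 against 669.9 to 884), NLRC5 (653 against 328 to 409), OASL (2968 against 437 to 877) and PELI1 (3637 against 1993 to 2322). It was also high in ADAMTS15 (159.5 against 94.0 to 114), ARID5A (895 against 323 to 443) and CCR1 (895 against 588 to 677). It was low in BAK1 (1059 against 1218 to 1323), CCND3 (926 against 1059.8 to 1147) and FOS (257 against 417 to 536). Among the genes named, LY96 alone lost its call without this library (-0.42, limma adjusted p = 0.0783).

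DCVC replicate B was high in RELA (2204 against 1889 to 1998). DCVC replicate E was high in AURKA (523 against 394 to 436) and low in CD86 (12.4 against 32.6 to 47.9), MMP12 (4.44 against 11.5 to 19.5) and TNFAIP3 (197 against 280.1 to 322). DCVC replicate F was high in CGAS (294 against 205 to 226) and RIPK3 (123 against 73.9 to 86.0) and low in CD44 (1515 against 2333 to 2991), IL1B (2164 against 4936 to 7049.9), PTGS2 (48.2 against 88.3 to 118) and TNFAIP2 (1705 against 2128 to 2347). DCVC_LPS replicate B was high in CDK6 (14053 against 11878 to 12531). DCVC_LPS replicate C was high in TXNRD1 (91304 against 85001 to 86323). DCVC_LPS replicate E was low in IDH2 (1426 against 1686 to 1829), TNFAIP2 (48806 against 51971 to 53431), TNFRSF9 (939.5 against 1365 to 1602) and TNIP1 (20320.2 against 23380.5 to 24725). For these genes all DCVC reads were in 1 library, with 0.852 normalized counts of ADORA2A-AS1 in DCVC replicate A, 0.977 normalized counts of CXCL9 in DCVC replicate B, 0.977 normalized counts of HCAR3 in DCVC replicate B, 2.93 normalized counts of IDO1 in DCVC replicate B and 1.95 normalized counts of IL12B in DCVC replicate B, and 0 in the other 5.

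The LPS change with DCVC differed from that without it, by the limma test of the difference itself, in each of the 18 genes that follow. It was lower with DCVC by the following log2 differences, -8.54 for CCR7, -7.61 for NR4A3, -5.20 for CCL2, -4.02 for NUAK2, -3.92 for CGAS, -3.19 for SEMA6B, -3.05 for IL23A, -2.80 for TNFAIP2, -2.77 for GPR183, -2.66 for SOCS3, -2.54 for ARID5A and -1.85 for TNF. It was higher with DCVC by 3.94 for DCAF12L2, 3.31 for DGKG, 2.95 for HMOX1, 2.41 for DCAF12L1, 1.27 for BCL2A1 and 0.73 for TAB2. The cause of none of these was tested.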

How the results depend on the processing

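Rescaling the libraries to equal totals gave 2263 genes raised and 7322 lowered by LPS with DCVC, and 4600 genes with a positive difference between the LPS changes. Within the letters E and F, 1281 differences were positive and 1578 negative, with fewer libraries. With the replicate block 4666 genes rose and 5078 fell and the positive and negative differences were 3917 and 3924. The block gave calls to VEGFA and CXCL16 and moved the list counts given above, and it changed no other call among the 256 genes named. Leaving out 1 library at a time gave 3980 to 4201 rises and 4290 to 4529 falls, 2876 to 3126 positive and 3153 to 3392 negative differences, and a log2 ratio of normalized totals of 0.288 to 0.302. TMM scaling gave 4069 positive and 2529 negative differences.

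No gene named reversed. Of the 256, 253 kept their side of the threshold under equal totals, 250 within A and B, 250 within C and D and 246 within E and F. The 19 differences followed through the alternatives, which leave out those of IDO1 and IL6, all kept theirs under every alternative. Under equal totals SPI1 lost its call and TLR4 and VEGFA gained one, and within letter pairs the lost calls included CGAS, MT1F and NLRC5 (E and F) and DGKG and IL12B (A and B). The cause of these shifts was not tested. With 18478618 to 26232127 reads per library, genes with a few reads over a group (IL10, CXCL9, IFNB1) are limited by counting, and their fitted changes depend on the pseudocount. Ratios of genes with at most 3 reads in a group were also recomputed without each library, an alternative chosen after seeing the data, and those that moved by over 1.5 times are given with the genes where a ratio is printed.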
